A study of Mus musculus with 6 samples.

Results

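The genes described here are 47 transcripts that drive mitosis: the cyclins that turn on the mitotic kinase CDK1, the polo, Aurora and NEK kinases, the spindle checkpoint, the motor proteins called kinesins, the kinetochore, and the enzymes of anaphase and cytokinesis. They were selected by symbol from a list of known mitotic functions, drawn up with earlier results of these data known, and all 47 were found among the 53735 rows of the deposited table. All 47 also passed the filter for testing (an average over all libraries of 10 normalized counts or more), which 14298 genes passed. RNA sequencing was done on leukemia stem cells, the fraction of a leukemia able to regrow it, taken from the bone marrow (3 libraries) and the liver (3 libraries) of C57 mice that had received leukemia cells 13 days earlier and no treatment. The labels list every library as male and name its replicate number as a technical replicate. They give neither the lesion that drives the leukemia, nor the age or number of animals, nor the sorting gate. No source says that separate animals gave the libraries. The p-values are therefore measured against the spread of these 6 libraries alone, part of which may be technical.

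Entry into mitosis follows from the rise of cyclin A and cyclin B, which bind CDK1, and from the CDC25 phosphatases, which remove inhibitory phosphates from it. Polo and Aurora kinases then mature the centrosomes and build the spindle, kinesins move and sort its microtubules, and the kinetochore ties each chromosome to them. The spindle checkpoint holds the cell until all chromosomes are attached, after which the anaphase-promoting complex with its activator CDC20 marks cyclin B and securin for destruction. The transcripts of these proteins peak together in G2 and mitosis, and their abundance in a bulk sample is often used as a reading of how many cells are dividing.

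The libraries held 15.4 to 18.5 M reads in bone marrow and 9.73 to 13.8 M in liver. Xist, an RNA of female cells, stood at 4860 and 6229 normalized counts in replicate 1 of bone marrow and liver, 4.28 and 1.42 in replicate 2, and 2486 and 2425 in replicate 3, so the number 1 and 3 libraries went against the male label. The sum of 4 Y-linked genes was 145, 2987 and 1553 in bone marrow replicates 1, 2 and 3 and 0, 2675 and 1634 in those of liver. Numbers 1 and 2 of each tissue thus differed in sex genes, against the label of technical replicates, and their spread is not technical alone. For the mitosis genes, replicate 3 lay between replicates 1 and 2 in 22 of 47 genes in bone marrow and 30 of 47 in liver, against 43.7% and 50.9% of all tested genes. The labels do not tell whether the number 3 libraries have a source of their own or share that of numbers 1 and 2. The 3 libraries of a tissue may thus be fewer than 3 separate samples, and each p-value is to be read with that limit. The leukocyte gene Ptprc and the progenitor genes Kit, Cd34, Hoxa9, Meis1, Myb, Spi1, Flt3 and Ly6a were present in all 6 libraries. Of these 9 genes 4 had a positive and 5 a negative log2 fold change (liver over bone marrow), and 0 passed the test. Cd34 was lower in every liver library (-0.54) and Hoxa9 higher in every one (0.22). The lowest value was that of Ly6a (-0.86) and the highest that of Kit (0.38). Of 11 hepatocyte markers, 6 including Alb were at 0 in every library, and the sum of the list was carried by Apoa1 (2285 to 3003 normalized counts in liver, 2645 to 5659 in bone marrow). The sum over 8 liver macrophage markers did not exceed 23.3, with Clec4f, Vsig4 and Cd5l at 0. Of 6 endothelial markers Cdh5 was at 0 and Pecam1 carried the sum (343 to 1079 in bone marrow, 436 to 1396 in liver), and the sum over 8 T, NK and B cell markers was 17.8 to 53.1 over the libraries, with 3 at 0. The sums over 8 erythroid markers were 7555 to 7960 in bone marrow and 5161 to 5867 in liver. Those over 9 neutrophil markers were 143 to 203 and 404 to 3667. Mpo carried most of the liver sums (283, 2250 and 1328) and alone of the 9 passed the test (higher in liver).

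Many G2/M genes carry a CHR element (cell cycle genes homology region) close to the start of the gene, where the DREAM repressor sits in resting cells and MYBL2 and FOXM1 complexes in dividing cells, and CCAAT boxes, which the factor NF-Y binds. RefSeq promoter sequences (GRCm38.p6), spanning 250 bases before to 50 bases after the start, were matched by symbol for 40 of the 47 genes. A CHR element, searched as TTTGAA or TTCGAA on both strands, was found in 30 of the 40 windows (75%), against 13.9% of the windows of 9046 tested genes and 19.2% of all 32851 windows. CCAAT on either strand was found in 29 (72.5%, against 39.1% and 37.4%), and both motifs together in 26 (65%, against 6.06% and 7.53%). Of 28 windows of DNA replication genes, 64.3% held CCAAT, 21.4% a CHR element and 17.9% both, so a high CCAAT share was not particular to the mitosis genes. TTCGAA reads the same on both strands and was counted once, and a CHR element and a CCAAT box can share a base. The CHR element lay within bases -60 to 50 in 27 of the 40 windows, against 3.85% of the windows of tested genes, a range chosen after the positions were seen. A match is a stretch of letters and not a shown binding site.

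**Figure D1:**
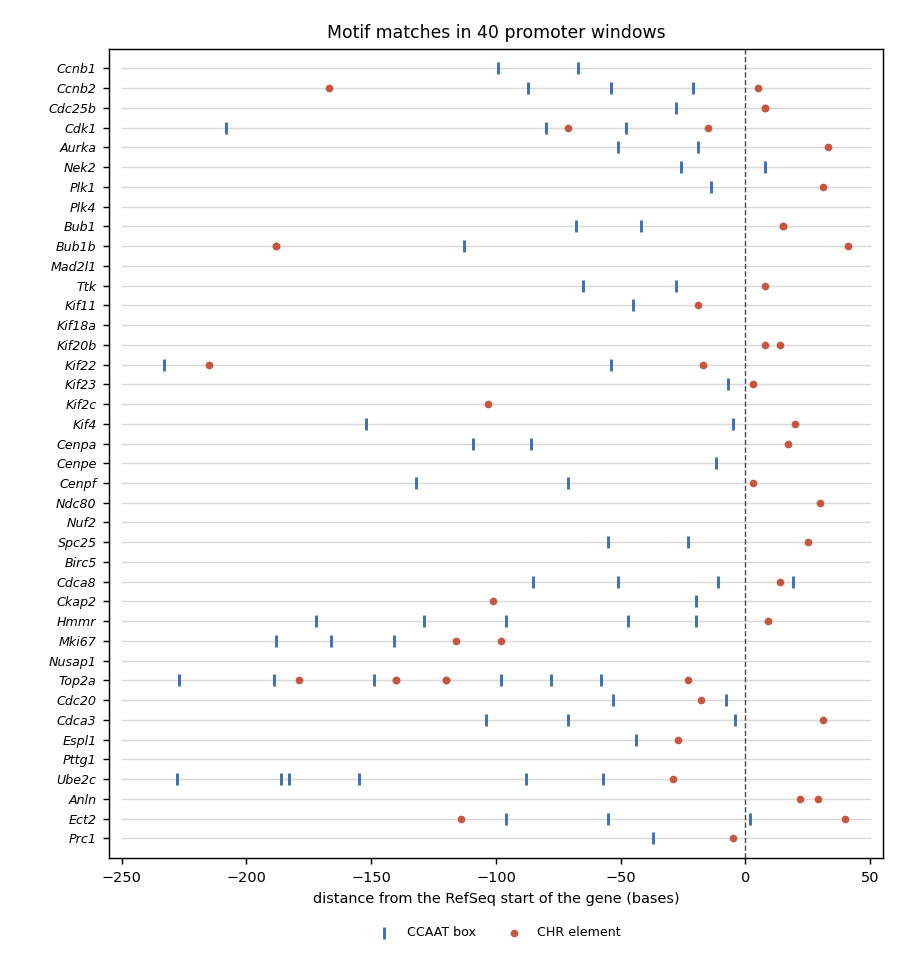
Positions of CHR elements (dots) and CCAAT boxes (bars) in the promoter windows of 40 mitosis genes, 1 gene per line, with the distance from the RefSeq start in bases on the x axis and the start as the dashed line. CHR elements gather near the start and CCAAT boxes mostly before it, while 7 windows hold neither motif.

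The stretches below show what these windows look like. The first 5 belong to the genes with the smallest adjusted p in the tissue comparison that had a sequence. Cdk1 was added after its matches had been seen. By adjusted p Birc5, whose window holds neither motif, came before Cdk1 and is not shown. Capitals mark CCAAT boxes (read as ATTGG on the other strand) and CHR elements (TTTGAA, or TTCAAA on the other strand). Each stretch was trimmed to bases that no annotated exon covers, so elements after the start and some before it fall outside. The stretches of Ube2c, Kif22 and Cdk1 end 32, 52 and 27 bases before the start. Cut off are CHR elements at base -29 of Ube2c, -17 of Kif22 and -15 of Cdk1, and a CCAAT box at -54 of Kif22.
Hmmr, chr11:40733438-40733666, minus strand: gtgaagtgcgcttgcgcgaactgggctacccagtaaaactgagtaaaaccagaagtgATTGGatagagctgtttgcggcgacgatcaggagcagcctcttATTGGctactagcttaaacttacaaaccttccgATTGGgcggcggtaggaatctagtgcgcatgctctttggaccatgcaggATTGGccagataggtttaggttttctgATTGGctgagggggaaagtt
Ube2c, chr2:164769679-164769897, plus strand: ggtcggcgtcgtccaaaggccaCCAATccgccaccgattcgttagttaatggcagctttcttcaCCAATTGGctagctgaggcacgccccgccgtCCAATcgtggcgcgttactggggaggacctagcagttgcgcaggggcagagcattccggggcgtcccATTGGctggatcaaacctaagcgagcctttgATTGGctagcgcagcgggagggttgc
Kif22, chr7:127042472-127042670, minus strand: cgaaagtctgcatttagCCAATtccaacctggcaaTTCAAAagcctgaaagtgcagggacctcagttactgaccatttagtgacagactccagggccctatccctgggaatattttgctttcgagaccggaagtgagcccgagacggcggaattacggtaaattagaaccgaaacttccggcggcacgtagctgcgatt
Mad2l1, chr6:66534971-66535220, plus strand: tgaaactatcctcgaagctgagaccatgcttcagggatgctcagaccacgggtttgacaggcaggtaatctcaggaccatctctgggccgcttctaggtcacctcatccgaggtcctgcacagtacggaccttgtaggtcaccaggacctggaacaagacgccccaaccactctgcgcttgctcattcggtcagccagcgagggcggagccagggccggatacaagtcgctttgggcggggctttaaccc
Aurka, chr2:172370571-172370680, minus strand: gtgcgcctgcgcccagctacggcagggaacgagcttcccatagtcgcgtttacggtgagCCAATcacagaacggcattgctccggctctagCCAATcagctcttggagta
Cdk1, chr10:69352939-69353162, minus strand: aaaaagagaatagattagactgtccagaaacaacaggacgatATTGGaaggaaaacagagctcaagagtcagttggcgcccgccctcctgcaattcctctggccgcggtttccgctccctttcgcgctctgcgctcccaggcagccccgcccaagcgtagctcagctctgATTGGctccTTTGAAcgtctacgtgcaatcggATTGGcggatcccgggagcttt
Hmmr shows 5 CCAAT boxes, with a CHR element starting at base 9 of the transcript, outside the stretch. Ube2c has 6 CCAAT matches, a pair of them overlapping in the palindrome CCAATTGG, and a CHR element at base -29, outside the stretch. Mad2l1 has neither motif in its window. Cdca3 would have been shown by the same rule, but its window lies in annotated exons of the gene.

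Liver was compared with bone marrow to see whether leukemia stem cells in the liver carry mitotic transcripts at another level. The 47 genes together made up 4555, 4406 and 4472 CPM (counts per M reads) in bone marrow replicates 1, 2 and 3, and 5108, 5809 and 5441 in liver replicates 1, 2 and 3. Every liver library was thus above every bone marrow library. The log2 fold change (liver over bone marrow, on log2 of normalized count + 1) was positive for 46 of 47 genes, with a median of 0.26 and a range from 0.00 to 0.49, while 48.4% of all tested genes were positive and their median was -0.01. In 32 of the 47 genes every liver library exceeded every bone marrow library and in 0 the reverse held, against 11.4% and 10.9% of tested genes. The shift was small: the largest was 1.40-fold and the middle gene differed 1.19-fold. In bulk RNA a larger share of dividing cells and more mitotic RNA per dividing cell cannot be told apart.

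Few single genes passed the test over all genes. With limma and Benjamini-Hochberg adjustment at 0.05, Hmmr and Incenp rose in liver, 2 of the 47 (4.26%) against 0.42% of all tested genes, and 0 fell (0.594% of tested genes). At an unadjusted p under 0.05, 30 were higher and 0 lower, against 7.65% and 8.04% of tested genes. edgeR on the recovered reads called the same number, 2 higher and 0 lower (background 0.371% and 0.574%), and DESeq2 called 13 higher and 0 lower (2.13% and 2.71%). With the replicate number as a block, limma called 9 higher and 0 lower (1.41% and 2.26%). The count depended on single libraries. It was 0 without bone marrow replicate 1, 2 or 3 (0.0139%, 0.028% and 0.007% of tested genes were called higher) or without liver replicate 3 (0.00699%). It was 1 without liver replicate 2 (0.189%) and 12 without liver replicate 1 (1.45%). At least 43 of the 47 genes stayed positive in each of these fits, though for 16 genes the log2 fold change moved by over 1.5 times in 1 or more of them. Without both libraries of number 1 the count was 5 (0.696% of tested genes) with a median of 0.32, without both of number 2 it was 0 (0.0421%) with 0.19, and without both of number 3 it was 0 (0%) with 0.26.

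**Figure D2:**
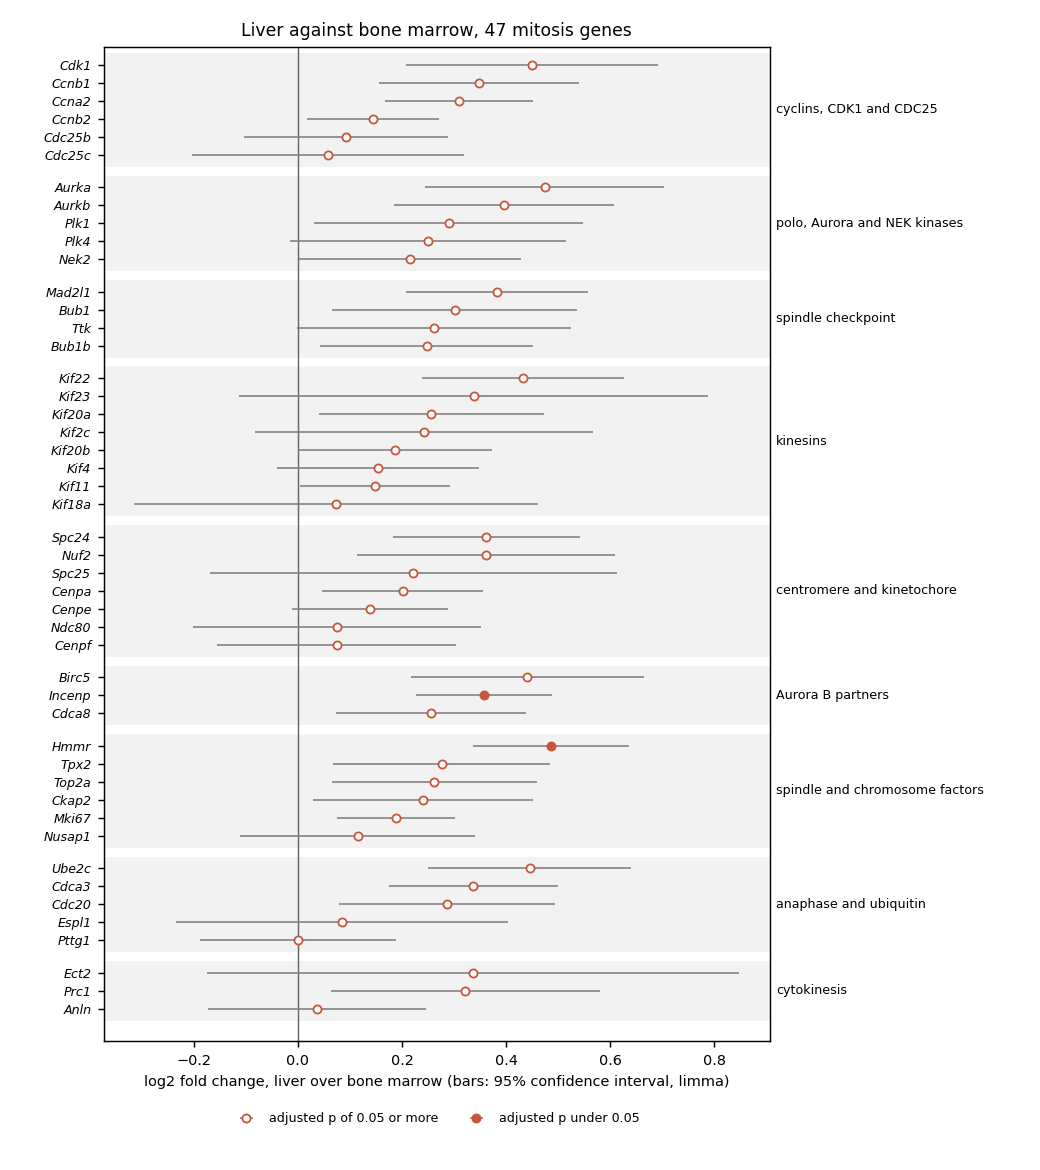
Log2 fold change of each of the 47 genes, liver over bone marrow (points; bars are 95% confidence intervals from limma), ordered within 9 roles. Points lie between 0.00 and 0.49 and filled points mark Hmmr and Incenp, the genes with an adjusted p under 0.05.

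Hmmr encodes a receptor for hyaluronan that inside the cell sits on spindle microtubules and helps to anchor TPX2 at the poles. It held 1046, 1040 and 1060 normalized counts in the bone marrow libraries and 1444, 1421 and 1547 in the liver libraries. The tissues did not overlap, and the liver libraries lay 40.1% higher on the fitted scale (log2 fold change 0.49 ± 0.064 SE, limma adjusted p = 0.027). The value rests on 3806 reads in bone marrow and 3747 in liver. Without a single library the change stayed between 0.45 and 0.51, and the call held without liver replicate 1 (adjusted p = 0.021) or 2 (0.043) and was lost without liver replicate 3 (0.18) or bone marrow replicate 1 (0.13), 2 (0.12) or 3 (0.18).

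Incenp, the scaffold that carries Aurora B to the inner centromere, held 1710, 1801 and 1698 normalized counts in bone marrow and 2213, 2273 and 2186 in liver. Its liver libraries were all above those of bone marrow and were close to each other (log2 fold change 0.36 ± 0.056 SE, limma adjusted p = 0.041). The change stayed between 0.34 and 0.38 without any single library. The call held without liver replicate 1 (adjusted p = 0.033) and was lost without liver replicate 2 (0.077) or 3 (0.20) and without bone marrow replicate 1 (0.16), 2 (0.12) or 3 (0.25). It was also lost with no filter (0.055) and after thinning to equal depth (0.056).

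The other partners of Aurora B did not pass. Birc5, or survivin, which with borealin docks the complex on chromatin, held 1528, 1525 and 1705 normalized counts in bone marrow and 1893, 2374 and 2212 in liver (log2 fold change 0.44, limma adjusted p = 0.089). Cdca8, the borealin gene, had the smallest difference of these 3 genes, with 0.26 (adjusted p = 0.19). In all 3 every liver library lay above bone marrow (11.4% of tested genes). Aurkb, the kinase itself, held 1537, 1331 and 1486 against 1796, 2124 and 1817, again without overlap (0.40, adjusted p = 0.099).

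Among the other kinases the difference was largest for Aurka, which matures centrosomes and assembles the spindle. It held 1047, 880 and 1071 normalized counts in bone marrow and 1273, 1433 and 1451 in liver (log2 fold change 0.47, limma adjusted p = 0.079). Plk1, the polo kinase of mitotic entry, held 1429, 1214 and 1309 against 1540, 1869 and 1443, where liver replicate 3 barely cleared bone marrow replicate 1 (0.29, adjusted p = 0.27). The centriole duplication kinase gene Plk4 overlapped between the tissues (0.25), and Nek2, a kinase that separates centrosomes, had the smallest fold change of the group (0.22, adjusted p = 0.32). The median over these 5 kinases was 0.29 and 0 passed. In 4 of the 5 every liver library lay above bone marrow (11.4% of tested genes).

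The differences of the cyclins and their kinase were unequal in size. Cdk1 held 1786, 1887 and 1648 normalized counts in bone marrow and 2097, 2721 and 2485 in liver (log2 fold change 0.45, limma adjusted p = 0.099). Ccna2, the cyclin A2 gene, was nearly equal in the bone marrow libraries (2500, 2511 and 2503, an SD below the counting error of 1.82%) and reached 2947, 3326 and 3053 in liver (0.31, adjusted p = 0.070). The cyclin B genes Ccnb1 (0.35, adjusted p = 0.11) and Ccnb2 (0.14, adjusted p = 0.27) did not overlap between tissues either, though the fold change of Ccnb2 was below the median of the 47. The CDC25 phosphatase genes overlapped: Cdc25c held 327, 338 and 338 against 316, 388 and 343, with a log2 fold change of 0.06 and a 95% confidence interval of -0.20 to 0.32. Cdc25b was at 0.09. Over the 6 genes the median was 0.23 and 0 passed.

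In all 4 spindle checkpoint genes every liver library lay above bone marrow (11.4% of tested genes), with a median of 0.28 and 0 passing. Mad2l1 encodes MAD2, which binds CDC20 and holds it inactive, and stood at 1588, 1492 and 1537 normalized counts in bone marrow and 1894, 2200 and 1936 in liver (log2 fold change 0.38, limma adjusted p = 0.070). Bub1b, the gene of the checkpoint protein BUBR1, had the smallest fold change of these genes (0.25, adjusted p = 0.24), near those of Ttk (0.26), the kinase that starts the signal, and Bub1 (0.30).

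In 5 of the 8 kinesin genes every liver library lay above bone marrow (11.4% of tested genes), the median was 0.21 and 0 passed. Kif22, a chromokinesin that pushes chromosome arms from the poles, led with 1289, 1072 and 1240 normalized counts in bone marrow and 1593, 1589 and 1668 in liver (log2 fold change 0.43, limma adjusted p = 0.068). Kif11, the bipolar motor that pushes the poles apart, differed by less (0.15, adjusted p = 0.31). Kif18a, which dampens chromosome movements, had the smallest fold change, with 394, 264 and 356 against 351, 384 and 320, an interval of -0.31 to 0.46 and the widest bone marrow spread of the 47 genes (19.8% of its mean). Kif23, a motor of the central spindle, ranged from 630 in liver replicate 1 to 1109 in liver replicate 2, around bone marrow values of 624 to 738.

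The centromere and kinetochore genes had unequal values within a single complex. Spc24 and Nuf2 had log2 fold changes of 0.36 each, and the other subunits of the same NDC80 complex, Ndc80 and Spc25, had 0.08 and 0.22 with overlapping tissues. Spc24 held 706, 724 and 741 normalized counts in bone marrow and 868, 979 and 945 in liver (limma adjusted p = 0.087). Ndc80 held 510, 637 and 547 against 537, 657 and 589 (adjusted p = 0.82), with an interval of -0.20 to 0.35 that includes the value of Spc24, and the difference between subunits was not tested. Single libraries moved the lower pair: Ndc80 was 0.00 without liver replicate 2 and 0.17 without bone marrow replicate 2, and Spc25 was 0.07 without liver replicate 2 and 0.37 without liver replicate 1. Cenpf had the smallest fold change of the 7 (0.07, adjusted p = 0.77), Cenpe 0.14 and Cenpa, the centromeric histone, 0.20. The median of the 7 was 0.20, 0 passed, and in 4 every liver library lay above bone marrow (11.4% of tested genes). Without liver replicate 2 this median was 0.11.

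Besides Hmmr, the spindle and chromosome factors did not pass. The median of the 6 was 0.25, and in 5 every liver library lay above bone marrow (11.4% of tested genes). Top2a, the topoisomerase that untangles sister chromatids, had the highest counts of the 47 genes before any correction for length. It held 4529, 4396 and 4339 normalized counts in bone marrow and 4724, 5970 and 5284 in liver (log2 fold change 0.26, limma adjusted p = 0.20). Mki67, the proliferation marker Ki-67 that coats mitotic chromosomes, held 3907, 4003 and 4059 against 4387, 4624 and 4632 (0.19, adjusted p = 0.13). Its standard error of 0.049 was the smallest of the 47 genes. Nusap1, a microtubule bundling factor, had the smallest fold change here (0.11), with liver replicate 1 below all bone marrow libraries.

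The enzymes of anaphase included the gene with the lowest fold change of the 47. Ube2c, the ubiquitin carrier of the anaphase-promoting complex, stood at 2195, 2140 and 2103 normalized counts in bone marrow and 2579, 3161 and 3061 in liver (log2 fold change 0.45, limma adjusted p = 0.065). Pttg1 encodes securin, the inhibitor of separase that this machinery destroys, and held 602, 551 and 577 in bone marrow and 559, 587 and 583 in liver. Its log2 fold change was 0.00 with an interval of -0.19 to 0.19 (0.878-fold to 1.14-fold). Espl1, the gene of separase itself, overlapped as well (0.08), with its highest value, 1193, in bone marrow replicate 1. Its fold change was 0.23 without that library and -0.03 without bone marrow replicate 2. Cdc20 (0.29) and Cdca3 (0.34), an adaptor for the destruction of WEE1, did not overlap. The median of the 5 was 0.29 and 0 passed.

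The 3 cytokinesis genes all overlapped between tissues and 0 passed. Ect2, which activates RhoA at the cleavage furrow, held 556, 806 and 732 normalized counts in bone marrow and 669, 1174 and 842 in liver. It had the largest standard error of the 47 genes (log2 fold change 0.34 ± 0.22 SE, limma adjusted p = 0.52). The value was 0.12 without liver replicate 2, 0.18 without bone marrow replicate 1 and 0.53 without liver replicate 1. Anln, or anillin, the scaffold of the contractile ring, had the smallest fold change (962, 799 and 883 against 940, 905 and 861, 0.04, interval -0.17 to 0.25). Prc1, which bundles the central spindle, was at 0.32. Their median of 0.32 became 0.18 without bone marrow replicate 1 and 0.12 without liver replicate 2.

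**Figure D3:**
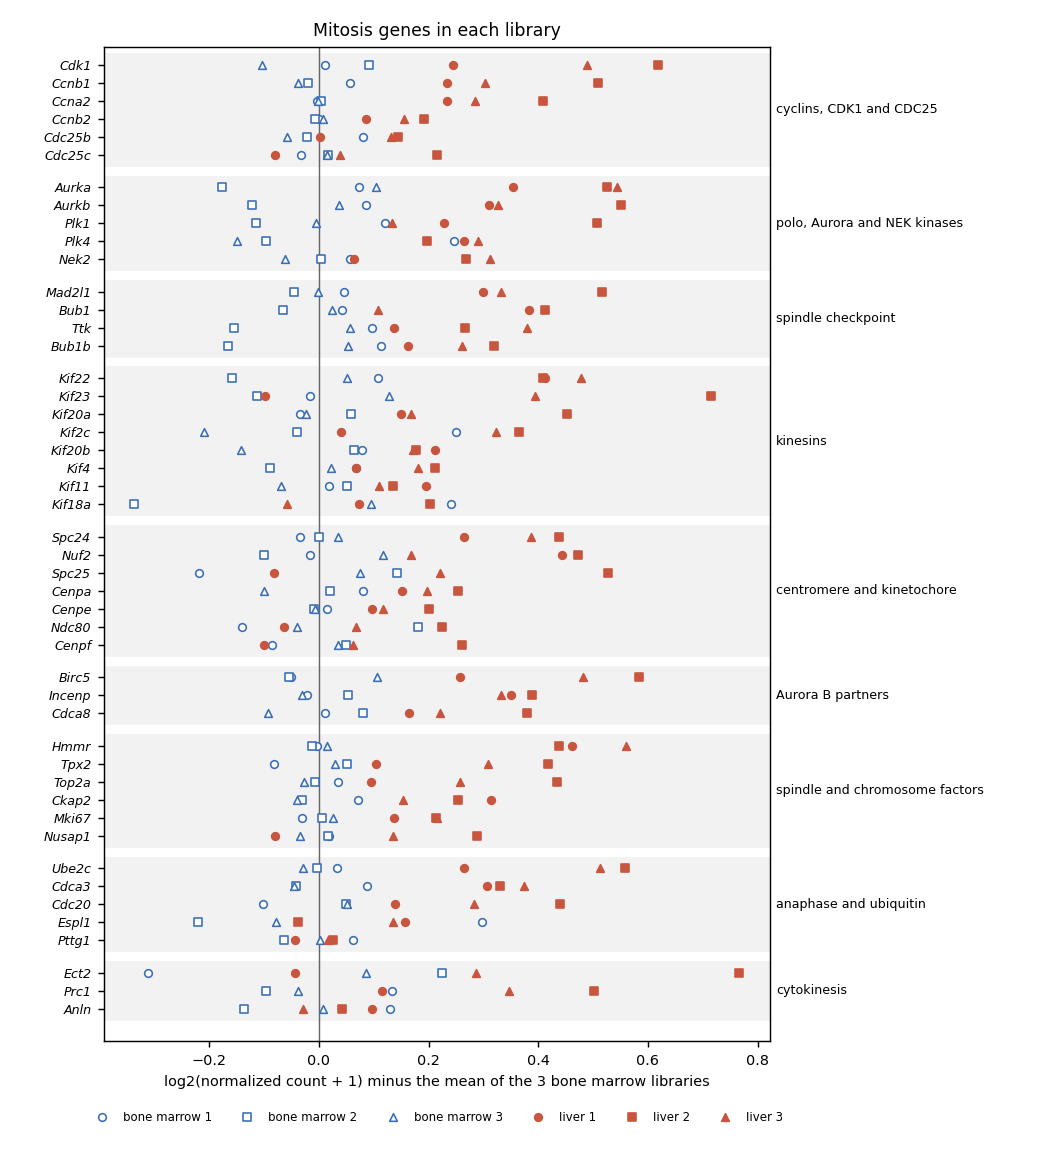
Level of each of the 47 genes in each library as log2(normalized count + 1) minus the mean of the 3 bone marrow libraries (x axis), with open symbols for bone marrow, filled symbols for liver and the shape giving the replicate number. Most filled symbols lie to the right of the open ones, and the squares of liver replicate 2 are most often farthest right.

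The liver libraries differed among themselves more than those of bone marrow. Liver replicate 2 held the highest value of all 6 libraries in 32 of 47 genes, against 21.7% of tested genes, and liver replicate 1 was the lowest of the liver libraries in 34, against 39.1%. The median over the 47 genes, relative to the bone marrow mean, was 0.03, -0.01 and 0.00 on the log2 scale in bone marrow replicates 1, 2 and 3, and 0.15, 0.38 and 0.26 in liver replicates 1, 2 and 3. Within a tissue the SD was 5.55% of the mean for the middle gene in bone marrow and 8.41% in liver, and it was larger in liver for 30 of 47 genes. The liver libraries stood in the same order in their neutrophil marker sums (404, 3667 and 2102 normalized counts). Mpo carried most of these sums (283, 2250 and 1328). Of 7 tested markers of the list 6 were positive, and Ltf was negative (-0.28). The part of cells with these markers in the mitosis genes was not tested. The liver libraries stood in the reverse order of depth (13.8, 9.73 and 11.4 M reads). After thinning all libraries to equal depth the median was 0.27, with all 47 genes positive.

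The size of the difference was also read by promoter motif. The 30 genes with a CHR element had a median log2 fold change of 0.25 and the 10 without it 0.23, and these ranged from 0.04 to 0.49 and from 0.00 to 0.44. Among the genes without either motif were Birc5 (0.44) and Mad2l1 (0.38) as well as Pttg1 (0.00) and Kif18a (0.07). With a CCAAT box the median was 0.26 (29 genes), with 2 or more 0.27 (20 genes), and without one 0.19 (11 genes). No test was made of these descriptions.

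Levels were also divided by exon length, taken as all annotated exons of a gene joined over its isoforms. That length was 1.53 kb for Ccnb2 and 5.86 kb for Cenpa, and the ranking depends on it. Per kilobase of annotated exon, the most abundant mitosis transcript was Ccnb2 with 1402 normalized counts per kb in bone marrow and 1550 in liver. Cdc20 followed with 1049 and 1283, and Ube2c with 825 and 1128. Kif18a was the lowest with 34.4 and 35.8, and the median gene stood at 220 in bone marrow and 271 in liver.

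Other genes of mitosis were mostly positive too. Over 119 further genes of the kinetochore, spindle, mitotic kinases, condensin and cohesin, and the anaphase-promoting complex, 98 had a positive log2 fold change, the median was 0.15 and 0 passed by limma or edgeR, with 33 higher and 2 lower at an unadjusted p under 0.05 (7.65% and 8.04% of tested genes) and 12 higher by DESeq2 (2.13%). Without liver replicate 1, limma called 5 of them higher (1.45% of tested genes). The medians were 0.25 for 28 spindle and cytokinesis genes, 0.18 for 32 kinetochore and checkpoint genes, 0.13 for 21 kinases and phosphatases, 0.09 for 21 condensin and cohesin genes and 0.08 for 17 subunits and regulators of the anaphase-promoting complex (0.05 without liver replicate 2). A list of kinesins taken as interphase motors, not all of them carriers of organelles and vesicles, was read as well. It had 10 positive and 7 negative fold changes among 17 tested of 21, and 0 passed. Every liver library lay above bone marrow in 1 of these 17 (Kif2a), against 5 of 8 mitotic kinesins and 11.4% of tested genes. The 17 averaged from 13.7 (Kif5c) to 2168 (Kif5b) normalized counts in bone marrow, the mitotic kinesins 338 or more. The contrast was not tested and the groups differ in level.

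**Figure D4:**
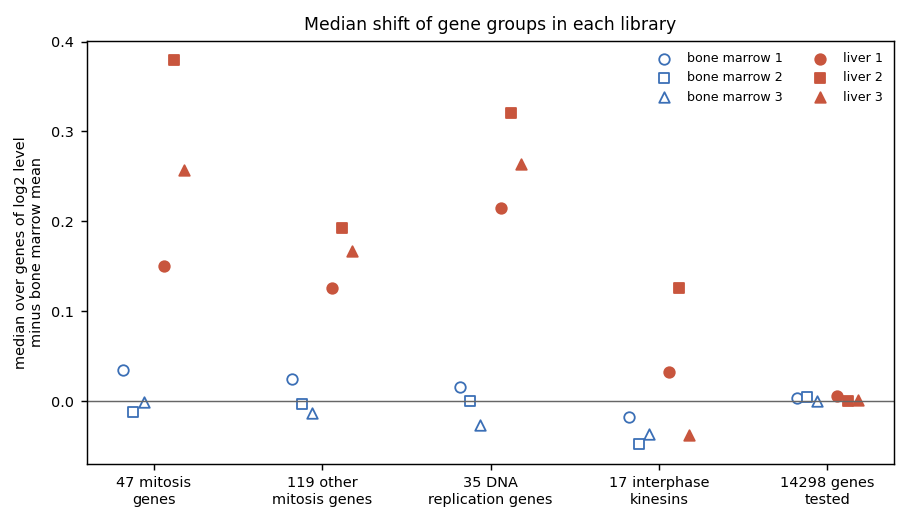
Median over the genes of each group of the log2 level in a library minus the bone marrow mean (y axis), for 5 groups of genes, with open symbols for bone marrow, filled for liver and the shape giving the replicate number. The liver libraries sit at 0.15 to 0.38 for the 47 mitosis genes and near 0 for all tested genes.

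The regulators that set these genes were read beside them. Of 19 transcription regulators of the cell cycle E2f2 rose, an activator of the genes of DNA synthesis, with 171, 147 and 153 normalized counts in bone marrow and 281, 307 and 285 in liver (log2 fold change 0.89 ± 0.12 SE, limma adjusted p = 0.035). That call held in 1 of the 6 fits that left out a library, with the change between 0.84 and 0.95. Mybl2, the partner of the CHR-binding complex in dividing cells, held 572, 617 and 628 against 831, 837 and 747 without passing (0.41, adjusted p = 0.080). Foxm1 overlapped between tissues (0.09, adjusted p = 0.70). Rbl2, which encodes p130 of the resting-cell repressor, was lower in every liver library (1588, 1618 and 1595 against 1369, 1296 and 1203) without passing (-0.31, adjusted p = 0.090). Over the 19 genes the median was 0.09, with 15 positive and 4 negative. Rbl1 (0.11), E2f4 (0.06), Lin9 (0.17), Lin37 (0.06), Lin52 (0.12) and Lin54 (0.24) were positive. Besides Rbl2, E2f5 (-0.05), Rb1 (-0.03) and Tfdp2 (-0.13) were negative. Whether the repressor differed as a whole was not tested.

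The preceding S phase was read from genes of DNA synthesis. All 35 DNA replication genes had a positive log2 fold change with a median of 0.25, every liver library lay above bone marrow in 23 (11.4% of tested genes), and 4 rose by limma (0.42% of tested genes): Uhrf1, Mcm5, Cdc45 and Cdt1. edgeR called 4 higher (0.371% of tested genes) and DESeq2 12 (2.13%). The limma count was 0 without bone marrow replicate 1, 2 or 3 (0.0139%, 0.028% and 0.007% of tested genes were called higher). It was 0 without liver replicate 3 (0.00699%), 1 without liver replicate 2 (0.189%) and 9 without liver replicate 1 (1.45%). Uhrf1, which guides copying of DNA methylation, held 1608, 1621 and 1634 normalized counts in bone marrow and 2246, 2261 and 2329 in liver (0.49 ± 0.053 SE, limma adjusted p = 0.018). Cdc45 and Mcm5, parts of the replicative helicase, and Cdt1, which loads it, had 0.55, 0.41 and 0.48 (adjusted p = 0.040 each). Their summed level was 4250 to 4327 CPM in bone marrow and 5079 to 5357 in liver. Of 14 tested G1 cyclins and CDK inhibitors 6 had a positive and 8 a negative fold change, with a median of -0.03. By limma, edgeR and DESeq2 0 passed. At an unadjusted limma p under 0.05, 4 were higher and 1 lower (7.65% and 8.04% of tested genes). Every liver library lay above bone marrow in 4 (28.6%, against 11.4% of tested genes) and below it in 1 (10.9%).

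Of the 47 genes 15 share exon bases with another annotated gene, among them Ccna2 with Exosc9, Cdc20 with Elovl1, Ube2c with Tnnc2, Nusap1 with Oip5 and Kif20a with Cdc23. The library chemistry does not mark the strand, so reads from such stretches could belong to either gene and these levels are uncertain. Hmmr and Incenp share none.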

How the data were processed

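Reads came from a low-input full-length cDNA kit with tagmentation, per the labels' protocols. The submitters' processing notes name STAR 2.6.0c, Trimmomatic 0.36, bcl2fastq 2.19.0, R 3.4.1 and DESeq2 1.16.1. Not given in the sources used here are the read counter, build and annotation.

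The deposited signal is a table of normalized counts: within each library, the authors scaled all reads by a single DESeq2 size factor. All values were whole multiples of the smallest one (tolerance 0.01), so 100% of reads could be recovered.

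The model was limma 3.58.1 (R 4.3.3) on log2 of the normalized count plus 1. Tissue was its sole term, the prior variance followed a trend, tests were two-sided, and Benjamini-Hochberg adjusted p-values over 14298 genes were called at 0.05. Settings tried instead were TMM, quantiles, a pseudocount of 0.5 or 10, a minimum mean of 50 or none, robust moderation, array weights, edgeR 4.0.16, DESeq2 1.42.0, a replicate term, thinning and left-out libraries. The fits were tested on simulated data. The members and gene lists were chosen with earlier results of these data known. Named were members past the threshold, the largest and smallest fold change of each role, and up to 4 passing members of other lists; the remaining names were picked with their values in view. Lengths and overlaps come from GENCODE M21, matched by symbol, and were not used for counting. Intervals cover 95%. Figures used matplotlib 3.10.9.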

Additional observations from a re-analysis of the deposited data

How the results depend on the processing

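Over the 22 alternative settings the median log2 fold change of the 47 genes stayed within 1 SD (0.13, over the 3 same-numbered differences) of its value and between 0.19 and 0.32, and 43 to 47 genes stayed positive. The count of genes called lower was 0 in each. The count called higher (2) was 1 with no filter (0.174% of tested genes) and after thinning (0.322%), 13 with DESeq2, 29 with array weights (11%, whose iteration stopped before its tolerance was met), and 5, 0 and 0 without both libraries of number 1, 2 and 3. Without 1 library it ranged from 0 to 12. Over all tested genes the count (145) was 638 with DESeq2, 3217 with array weights, 222, 22 and 2 without both libraries of number 1, 2 and 3, and from 6 to 427 without 1 library. The cause of these differences was not tested.

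Same-numbered libraries of the tissues deviated together for numbers 1 and 2 (correlation 0.44 and 0.40 over genes) and hardly for number 3 (0.06). Liver replicate 3 correlated best with bone marrow replicate 2 (0.15). Bone marrow replicate 2 went against liver replicate 1 (-0.44), and bone marrow replicate 1 against liver replicate 2 (-0.38). The first principal component (40.9% of the variance) ordered the numbers 1, 3, 2 in both tissues. The labels name no pairing and number 3 correlated weakly, so the main fit used none. Number 3 lay between numbers 1 and 2 on that component, close to the tissue mean. Its weak correlation therefore cannot decide whether the numbers are pairs. The numbers may still be pairs. Xist and Y-linked levels matched by number across the tissues, a hint from the data and not from the design. With the replicate block 9 of the 47 genes and 525 of all genes (1.41% higher and 2.26% lower) were called, with Ube2c, Kif22, Birc5, Cdk1, Ccna2, Aurka and Mad2l1 (limma adjusted p = 0.028 to 0.042) added to Hmmr and Incenp. DNA replication genes called numbered 10. With the replicate block without both libraries of number 3, the counts were 0 and 15.

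Genes near 0 changed sign, and the cause was not tested. Pttg1 was 0.0092 with quantile normalization, 0.0143 with array weights, 0.0093 after thinning, 0.0522 without both libraries of number 1, and -0.032 to 0.0307 without 1 library. Kif18a was -0.0694 with array weights, -0.1603 without both libraries of number 2, and -0.0953 to 0.1936 without 1 library. Anln was -0.0205 and -0.0352 in the same settings, and -0.032 to 0.1016 without 1 library. Cdc25c was -0.012 without both of number 2 and -0.0207 to 0.1267 without 1 library, and Cenpf -0.0193 to 0.1617 and Espl1 -0.0253 to 0.2335 without 1 library. At these depths each of the 47 genes had at least 878 reads per tissue.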
